A study of Homo sapiens with 68 samples.

Results

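Peaks on 6 genes for small nuclear RNAs (snRNAs) of the splicing machinery were followed through every peak list of a crosslinking and immunoprecipitation study in HEK293T cells, a human embryonic kidney line. The genes are RNU4-1 (ENSG00000200795) and RNU4-2 (ENSG00000202538) for U4, RNU5A-1 (ENSG00000199568) and RNU5B-1 (ENSG00000200156) for U5, RNU4ATAC (ENSG00000264229) for U4atac and RNU6ATAC (ENSG00000221676) for U6atac. They were chosen by gene identifier, and every peak that carries 1 of these identifiers was taken. This gave 690 of 15800601 listed peaks and 6 of 22843 listed genes. The study immunoprecipitated hnRNPA1, hnRNP C, hnRNPI or RBFOX2 (antibody named RBM9) after ultraviolet crosslinking and sequenced the RNA fragments held by each protein, in 68 libraries forming 34 groups of 2.

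Group names spell hnRNP C as hnRNPc. The comparisons use 16 of these groups, all labelled 50000 cells and 0.005 U of RNase. For each protein there is a crosslinked group taken through PAGE (gel electrophoresis and excision of the protein-RNA complexes), a crosslinked group without PAGE, and 2 groups titled noUV, prepared without crosslinking, with and without PAGE. The labels carry the same treatment text for all samples, and the absence of crosslinking is taken from the titles and the series description. The remaining groups, given as values, had more RNase (0.025 U), an added RecJ digestion or fewer cells by label or title. Others came from other regions of the gel after an hnRNP C precipitation. Groups labelled 10000 and 1000 cells had less RNase, 0.001 and 0.0001 U. The gel-region groups were labelled 10000 cells and 0.001 U. Nothing in the labels says that the 2 replicates of a group were separate cultures, so p-values measure only the spread between these samples.

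U4 and U6 snRNAs pair with each other, and this duplex joins U5 in the tri-snRNP, the particle that enters the major spliceosome before U4 is released and the enzyme becomes active. U4atac and U6atac do the same work in the minor spliceosome, which removes a rare class of introns, and U5 serves both machines. These RNAs are abundant and structured and stay bound to their own proteins. hnRNPA1, hnRNP C and hnRNPI (also called PTBP1) mostly bind pre-mRNA, and RBFOX2 regulates alternative exons.

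All 6 members were listed. On hg19, the build named in the submitters' processing notes, the RNU4-1 peaks spanned chr12:120730939-120731040 on the minus strand, and the RNU4-2 peaks spanned chr12:120729612-120729706 on the same strand. The peaks of RNU5A-1 spanned chr15:65588389-65588488 and those of RNU5B-1 chr15:65597015-65597127, both on the plus strand. RNU4ATAC was covered within chr2:122288474-122288577 on the plus strand and RNU6ATAC within chr9:137029608-137029687 on the minus strand. Each is an unspliced non-coding gene, and the spans ran from 80 to 113 nt.

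RNU4-2 was listed most often, in 65 of 68 libraries, with 153 peaks. RNU4-1 was listed in 58 libraries, RNU5B-1 in 53, RNU6ATAC in 52, RNU5A-1 in 51 and RNU4ATAC in 43. In 35 libraries all 6 genes had a peak, and in 2 libraries, both from the 100 to 150 kDa gel region, none had one. A gene that is not listed had no peak that the caller kept, and with the sequencing depth unknown this sets no upper limit on its reads.

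The gaps fell in particular groups. The U5 genes were absent from all 4 crosslinked hnRNPA1 libraries with PAGE, at low and medium RNase, and from both hnRNPI libraries with PAGE. All 24 crosslinked libraries without PAGE, across the 4 proteins, RecJ digestion and cell numbers, listed both U5 genes. RNU6ATAC was absent from all 4 crosslinked 50k hnRNP C libraries with PAGE, from both hnRNPc_1k libraries and from 1 of the hnRNPc_10k libraries. In crosslinked hnRNPA1 libraries RNU4ATAC was listed in 1 of 8, while all 4 hnRNPA1 libraries without crosslinking listed it.

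**Figure D1:**
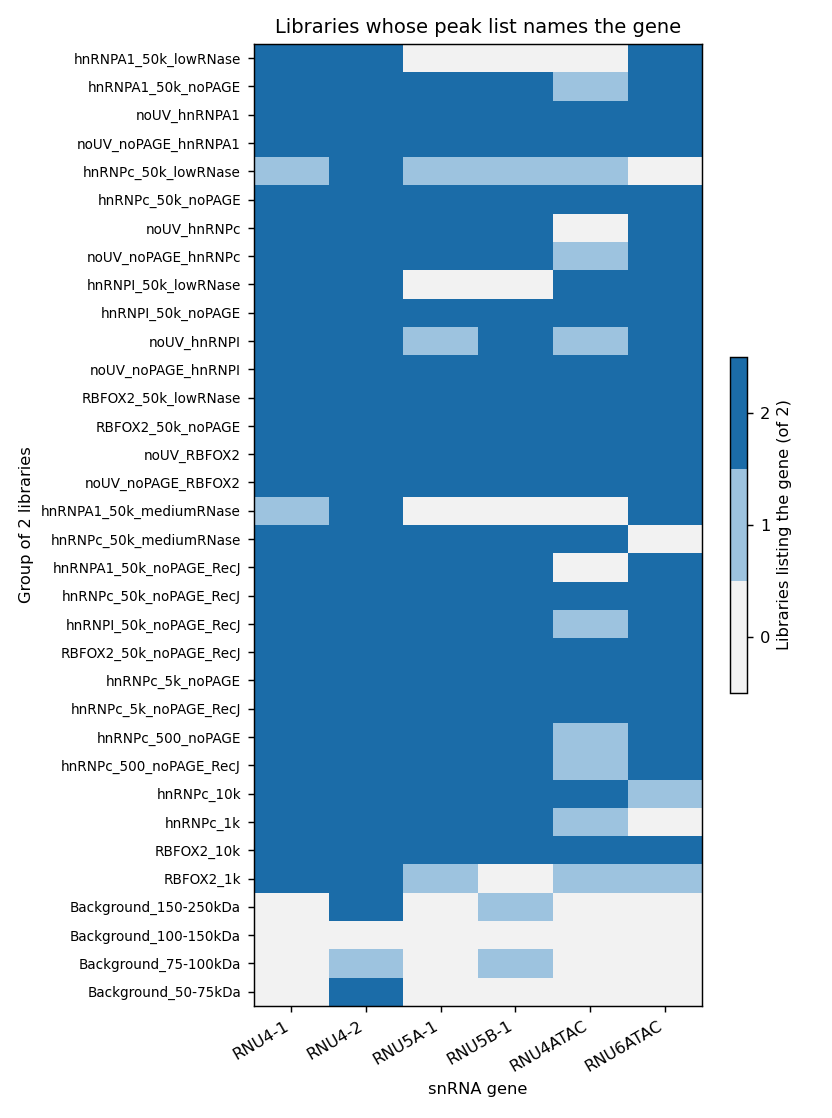
Number of libraries (0, 1 or 2, by shade) of each group, in rows, whose peak list names each snRNA gene, in columns. RNU4-2 is listed in 65 of 68 libraries; the pale cells of the U5 genes lie mostly in the crosslinked hnRNPA1 and hnRNPI groups with PAGE and in the other gel regions.

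The lists themselves differ in size, from 303 to 523402 peaks, and the number of sequenced reads is not given in the sources used here. Replicate 1 of the hnRNPc_50k_lowRNase group is far smaller than its partner, with 3268 peaks against 214849, so results that rest on it are given with and without it. All noUV libraries carry accessions from a later run of numbers than the crosslinked 50k ones, so a preparation batch, if there was one, and the lack of crosslinking cannot be told apart.

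Among the crosslinked 50k groups at low RNase, with or without PAGE, the RBFOX2 libraries held the tallest peaks on all 6 snRNAs, relative to their own lists. Peak height is given as the read number of the highest peak of the gene, because neighbouring peaks are pieces of 1 pile-up that repeat the same reads, and it is scaled to 1000000 reads summed over all listed peaks of the library (RPM below, reads per 1000000 listed reads). That sum itself counts such repeated reads, so RPM can also depend on how finely a list splits its pile-ups, which was not tested. For RNU4-2, the U4 gene listed most often, the highest peak without PAGE held 5722 and 5641 reads in the RBFOX2 libraries. The same peak held 445 and 449 reads for hnRNPA1, 210 and 188 for hnRNP C, and 375 and 199 for hnRNPI. This was 627 and 581 RPM for RBFOX2, against 20.1 to 38.8 RPM in the 6 other libraries. The lower RBFOX2 library was thus 15.0 times the highest library of another protein.

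RBFOX2 was highest for the other snRNAs too. Without PAGE the RNU4-1 peak held 339 and 323 RPM for RBFOX2, against 12.9 to 23.8 for the 6 other libraries. RNU5B-1, a U5 gene, stood at 360 and 343 RPM against 12.3 to 32.7, and RNU5A-1 at 286 and 279 against 9.39 to 25.9. For the U6atac gene RNU6ATAC the values were 248 and 234 RPM against 8.58 to 18.7. RNU4ATAC stood at 61.0 and 62.7 RPM for RBFOX2, against at most 3.08 elsewhere. Both RBFOX2 libraries were thus above all 6 others for 6 of 6 members, as they were for 17.2% of the 17478 genes tested. The summed listed reads of the RBFOX2 libraries without PAGE, 9131893 and 9713147, lay within the range of the others, 8440542 to 12349790, although their lists held fewer peaks (157375 and 161434, against 341973 to 523402).

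With PAGE, the RBFOX2 peaks were again above the 6 other libraries for 6 of 6 members, against 21.8% of genes, but the margins were smaller. For the U5 genes the lower RBFOX2 library was 1.58 times the highest other library in each case, and for RNU4-2 it was 1.96 times. That highest RNU4-2 value, 181 RPM, came from the small hnRNP C list, where the peak held 9 reads. The other hnRNP C library stood at 26.6 RPM with 66 reads.

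Without crosslinking the separation was partial. With PAGE, RBFOX2 was above all others for 3 members (RNU4-2, RNU5A-1 and RNU6ATAC), against 7.83% of genes. Without PAGE it was above them for 4 members, the U4 and U5 genes, against 14% of genes. The overlap came from hnRNPI: its 2 libraries without crosslinking or PAGE reached 252 and 169 RPM on RNU6ATAC, against 190 and 161 for RBFOX2.

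Within the lists the rank of these peaks depended on the protocol. In the crosslinked RBFOX2 lists without PAGE, ordered by the read number of the highest peak with no scaling to length, RNU4-2 was 17th of 13296 and 22nd of 13380 genes. RNU4-1 was 50th in both of these lists, RNU5B-1 44th in both, RNU5A-1 60th and 58th, RNU6ATAC 67th and 66th, and RNU4ATAC 281st and 263rd. In the RBFOX2 lists with PAGE the U4 genes kept such ranks (RNU4-2 14th of 15114 and 20th of 14302), but RNU5A-1 was 616th and 669th, RNU5B-1 515th and 603rd, and RNU6ATAC 550th and 301st. High ranks were not confined to RBFOX2: RNU5B-1 was 84th of 14005 and 94th of 14269 genes in the hnRNP C lists without PAGE. In the hnRNPA1 lists without PAGE, RNU4-2 was 99th of 15047 and 104th of 15104 genes.

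**Figure D2:**
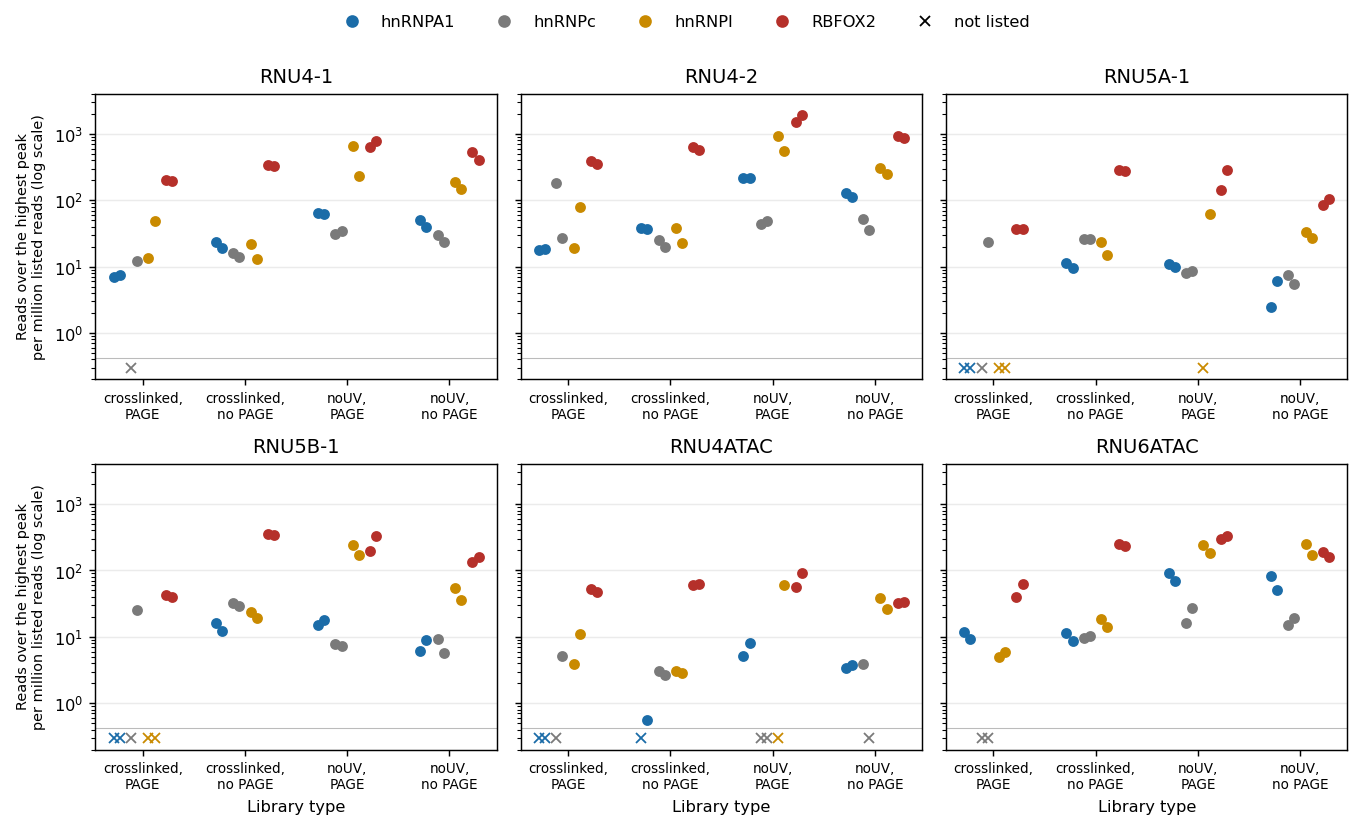
Reads over the highest peak of each snRNA gene per 1000000 listed reads (RPM, log axis) in each of the 32 libraries, by library type on the horizontal axis and by protein in colour; each point is a library and crosses mark libraries that do not list the gene. RBFOX2 points are at 581 to 627 for RNU4-2 in crosslinked libraries without PAGE, above the 6 others at 20.1 to 38.8.

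Only RNU4ATAC, in hnRNPA1, passed the test across genes between proteins, and for most members this test could show little. It used the length covered by listed peaks, as log2(nt + 10), in limma with Benjamini-Hochberg adjustment over the 17478 genes listed in at least 4 of the 32 libraries, and it compared each protein without PAGE with the mean of the other 3. Without PAGE the 8 libraries covered 65 to 67 nt of RNU4-2, 71 to 72 nt of each U5 gene, 52 to 60 nt of RNU6ATAC, 51 to 68 nt of RNU4-1 and 0 to 69 nt of RNU4ATAC, so that for RNU4-2 and U5 the measure had almost no range and says nothing on whether the proteins differ. No member passed for hnRNP C, where 11.3% of genes did, for hnRNPI (22%) or for RBFOX2 (30.4%). Scaling the covered length to the library turned the split of RBFOX2 calls over all genes from 1429 higher and 3891 lower to 2226 higher and 1624 lower, and that of hnRNPA1 from 1430 and 533 to 357 and 284. In these 3 comparisons 0 members had an unadjusted p below 0.05, and the lowest limma adjusted p was 0.324, for RNU4ATAC in RBFOX2.

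RNU4ATAC encodes the partner of U6atac in the minor tri-snRNP. The 2 hnRNPA1 libraries without PAGE covered 0 and 21 nt of it, while the 6 other libraries covered 57 to 69 nt. The difference was -2.07 on the log2 scale (SE 0.626), with a limma adjusted p of 0.0366. Of all genes, 3.05% were called lower in hnRNPA1, and the median of all genes was 0.93. The call did not hold without hnRNPA1_50k_noPAGE replicate 1, where the difference was -1.25 with an adjusted p of 0.497. It was also lost without any 1 of the 6 libraries of the other proteins without PAGE, where the adjusted p was 0.0526 to 0.0583.

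Tested on the highest peak in RPM instead, as log2(value + 1), a measure added after the data had been seen, 6 of 6 members were higher in RBFOX2 without PAGE. The differences ran from 3.96 for RNU5A-1 to 4.56 for RNU4ATAC, with limma adjusted p from 3.7e-09 (RNU6ATAC) to 0.00943 (RNU5A-1). By this measure 11% of genes were higher in RBFOX2, and the median over all genes was -0.37. The other proteins, each set against a mean that includes RBFOX2, had lower values for some members. RNU6ATAC was lower in hnRNPA1 (-1.72, limma adjusted p 0.00172; 2.28% of genes lower), and RNU4-2 (-1.93, adjusted p 0.0246) and RNU6ATAC (-1.71, adjusted p 0.00176) were lower in hnRNP C, where 3.92% of genes were. In hnRNPI RNU4-2 was lower (-1.43, adjusted p 0.048), as were 7.11% of genes. Without the small hnRNP C library all 6 members were again higher in RBFOX2, while 3 members were lower in hnRNPA1, 3 in hnRNP C and 4 in hnRNPI. Calls over all genes grew as well in that fit, from 1931 to 2467 higher in RBFOX2, and from 398 to 1249, 686 to 1543 and 1243 to 2138 lower in the other proteins.

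The second question was what happens to these RNAs when gel purification is left out. Averaged over the 4 proteins, the U5 genes gained coverage, and the 4 other members did not pass the test. RNU5A-1 had no peak in the hnRNPA1 and hnRNPI libraries with PAGE. Without PAGE its highest peak held 132 and 116 reads for hnRNPA1, and 230 and 131 reads for hnRNPI. RNU5B-1 likewise went from no peak to 184 and 152 reads for hnRNPA1, and to 231 and 173 for hnRNPI. U5 contacts the exon ends at the heart of the spliceosome.

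In RBFOX2 libraries, which listed U5 under both protocols, the RNU5A-1 peak went from 249 and 188 reads with PAGE to 2613 and 2714 reads without it. Scaled to listed reads, the mean was 37.0 ± 0.275 RPM (SD, n = 2) with PAGE and 283 ± 4.76 RPM (SD, n = 2) without, a ratio of 7.65. RNU5B-1 went from 40.7 ± 1.70 to 351 ± 12.2 RPM (SD, n = 2 each), a ratio of 8.62. In hnRNP C the difference was small: the larger library with PAGE stood at 23.3 RPM on RNU5A-1 and 24.96 on RNU5B-1, and the libraries without PAGE at 25.9 and 25.7 RPM on RNU5A-1 and 32.7 and 29.2 on RNU5B-1. The smaller library with PAGE listed neither gene.

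In covered length, averaged over the 4 proteins, RNU5A-1 was 1.92 higher without PAGE on the log2 scale (SE 0.410, limma adjusted p 0.00788) and RNU5B-1 1.91 higher (SE 0.314, adjusted p 0.0012). These 2 of 6 members passed, and 5.01% of genes were called higher. The averages rest mostly on libraries that list U5 only without PAGE. In hnRNPA1 mean covered length went from 0 to 71 nt on both genes, and in hnRNPI from 0 to 71.5 and 71 nt. In hnRNP C it went from 30.5 and 31.5 to 72 nt, where the small library listed neither gene. In RBFOX2 it was 70.5 against 71 nt on RNU5A-1 and 70.5 against 71.5 nt on RNU5B-1. The median difference over all genes was 0.86, and the log2 differences of both U5 genes were above it. RNU6ATAC (0.71, adjusted p 0.0519), RNU4ATAC (0.84, adjusted p 0.201), RNU4-1 (0.47, adjusted p 0.258) and RNU4-2 (0.23, adjusted p 0.439) lay below it. Without the small hnRNP C library the U5 differences were 1.57 and 1.56, with limma adjusted p of 0.0131 and 8.23e-05, and RNU6ATAC passed as well (adjusted p 0.0206). Without its partner, replicate 2, the small list stands alone for hnRNP C with PAGE. The differences were then 2.27 on both U5 genes, 0.98 on RNU4ATAC, 0.73 on RNU4-1, 0.71 on RNU6ATAC and 0.33 on RNU4-2. The shift of all genes in that fit was not examined. Both U5 calls were lost with covered length scaled to the library's total covered length (adjusted p 0.496 and 0.11) and in the exact permutation test within proteins (adjusted p 0.148 each). That permutation test called 0 of all 17478 genes here, and 6 of 6 members had an unadjusted p below 0.05 in it.

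By peak height the U5 genes were also the members that were higher without PAGE in each of the 4 proteins with no overlap between the 2 groups, a pattern that 0.28% of genes had. In hnRNP C this rests on the narrow margins just given. By protein, the groups did not overlap and were higher without PAGE for 4 members in hnRNPA1 (the U4 and U5 genes), against 12.9% of genes, and for 4 in hnRNP C (RNU4-1, both U5 genes and RNU6ATAC), against 14.5%. In hnRNPI 3 members were higher (both U5 genes and RNU6ATAC), against 13.4%. In RBFOX2 all 6 were higher, against 4.23% of genes. The RBFOX2 lists themselves held 157375 and 161434 peaks without PAGE and 260610 and 208407 with it, and the part of list size in this count was not tested.

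In RBFOX2 the other members had smaller ratios than U5. RNU6ATAC went from 271 and 311 reads to 2265 and 2271, and from 50.8 ± 15.2 to 241 ± 10.1 RPM (SD, n = 2 each), a ratio of 4.75. For RNU4-1 the ratio was 1.69, for RNU4-2 it was 1.63 and for RNU4ATAC 1.25. U6atac replaces U6 in the minor spliceosome, and its gene also went from no peak in either hnRNP C library with PAGE to 82 and 95 reads without it. Tested over the 4 proteins by peak height with limma, RNU5A-1 (3.29, adjusted p 0.00574), RNU5B-1 (3.53, adjusted p 6.76e-05) and RNU6ATAC (1.76, adjusted p 3.07e-05) were higher, as were 0.784% of genes (137 genes higher and 177 lower, against 875 and 61 in covered length), and the median over all genes was -0.11. Without the small hnRNP C library the differences of these 3 members were 2.71, 2.94 and 1.76, and the median over all genes was -0.29. Without its partner, replicate 2, RNU4-1 was 1.41 higher, and the median over all genes was 0.07.

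**Figure D3:**
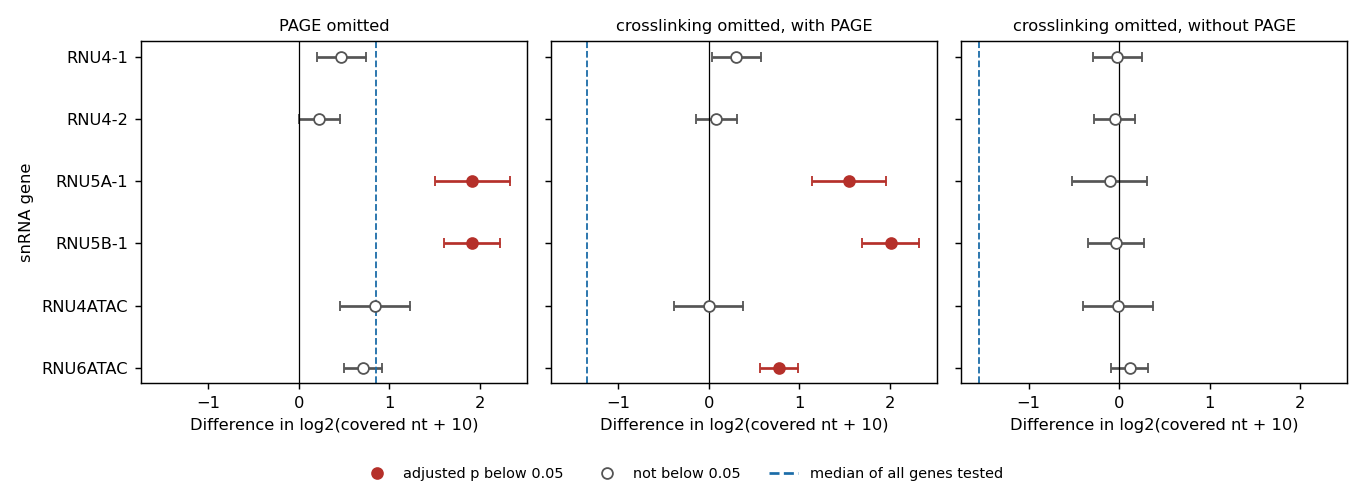
Difference in log2(covered nt + 10) for each snRNA gene, averaged over the 4 proteins, when PAGE is omitted and when crosslinking is omitted with or without PAGE; bars are standard errors from limma and the dashed line is the median of all genes tested. Filled points have an adjusted p below 0.05: both U5 genes when PAGE is omitted (1.92 and 1.91), and the U5 genes and RNU6ATAC when crosslinking is omitted with PAGE.

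The third question was what remains without crosslinking. The comparison with PAGE shares its crosslinked libraries with the PAGE comparison, and the one without PAGE shares the crosslinked libraries without PAGE. With PAGE, 3 of the 6 snRNAs gained covered length while the median gene lost it, and most but not all kept a peak in each protein. RNU4ATAC was listed in neither hnRNP C library without crosslinking and in 1 of 2 hnRNPI libraries. Omitting crosslinking moved the median of all genes by -1.35 in log2 covered length, with 345 genes called higher and 9077 lower. Scaled to the library's total covered length the median was -0.37, with 1140 higher and 2326 lower, and on peak height in RPM it was -0.04, with 2133 higher and 2460 lower, so the size of the general loss depends on the scaling. In covered length both U5 genes and RNU6ATAC passed as higher: RNU5A-1 was 1.55 higher (SE 0.410, limma adjusted p 0.00529), RNU5B-1 2.01 higher (SE 0.314, adjusted p 0.000168) and RNU6ATAC 0.77 higher (SE 0.209, adjusted p 0.00605). These are 3 of 6 members, and 1.97% of genes were called higher. The averages rest largely on libraries that list the gene only without crosslinking. Mean covered length of RNU6ATAC went from 0 to 59.5 nt in hnRNP C. It went from 54.5 to 68 nt in hnRNPA1, from 51 to 52.5 in hnRNPI and from 52 to 51 in RBFOX2. On U5, hnRNPA1 and hnRNPI started from no listed peak, as did the small hnRNP C library. RBFOX2 went from 70.5 to 77.5 nt on RNU5A-1 and from 70.5 to 71 nt on RNU5B-1. RNU4-1 (0.30, adjusted p 0.347), RNU4-2 (0.08, adjusted p 0.765) and RNU4ATAC (-0.00, adjusted p 0.997) did not pass.

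Both U5 genes and RNU6ATAC also passed without the small hnRNP C library, with differences of 1.20, 1.65 and 0.77 and adjusted p of 0.00556, 2.97e-07 and 0.000586. Without its partner, replicate 2, the small list stands alone for hnRNP C with PAGE. The differences were then 1.90 on RNU5A-1, 2.37 on RNU5B-1, 0.77 on RNU6ATAC and 0.56 on RNU4-1. The exact permutation test within proteins called none of the 6 after adjustment (adjusted p 0.379 at the lowest), with 3 of 6 at an unadjusted p below 0.05. That test called 0 of all 17478 genes in this comparison.

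Read numbers give the changes protein by protein. In hnRNPA1 with PAGE, the RNU4-2 peak held 135 and 132 reads with crosslinking and 759 and 647 reads without it, while the summed listed reads of the library were 7558564 and 7121272 with it and 3500463 and 2957736 without it. RNU6ATAC in the same libraries went from 90 and 67 reads to 326 and 206. In RBFOX2 the RNU4-2 peak had fewer reads without crosslinking, 931 and 954 against 2624 and 1797, but the library total was smaller still (626069 and 498162, against 6770805 and 5058628). In RPM, RNU4-2 therefore stood at 1701 ± 303 (SD, n = 2) against 371 ± 22.8 (SD, n = 2).

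In RPM, RNU4-1 and RNU6ATAC were higher without crosslinking in all 4 proteins with PAGE, with no overlap between groups, which 1.32% of genes shared. In hnRNPA1 6 of 6 members were higher, but so were 53.8% of all genes. In RBFOX2 6 of 6 were higher against 16% of genes. In hnRNPI 4 were higher (both U4 genes, RNU5B-1 and RNU6ATAC) against 19%, and in hnRNP C 2 (RNU4-1 and RNU6ATAC) against 17.2%. RNU5A-1 was in 1 of the 2 hnRNPI libraries without crosslinking, at 25 reads. Tested by peak height in limma, 5 members were higher over the 4 proteins, all but RNU4ATAC (0.54, adjusted p 0.545), and 12.2% of genes were higher. The median over all genes was -0.04. It was -0.16 with the small crosslinked hnRNP C library with PAGE left out, and 0.10 with its partner left out. In hnRNP C itself, RNU4-2 stood at 26.6 RPM in the larger crosslinked library with PAGE and at 43.2 and 48.1 RPM without crosslinking. The U5 genes were lower there: RNU5A-1 stood at 23.3 RPM in that library and at 7.88 and 8.53 RPM without crosslinking, and RNU5B-1 at 24.96 against 7.88 and 7.26.

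Without PAGE the picture changed with the RNA. In covered length 0 members passed, with limma adjusted p from 0.638 to 0.985 and 0 members at an unadjusted p below 0.05. Here too the measure had little range. Group means were 65.5 to 67 nt with crosslinking and 53 to 68.5 without it on RNU4-2. On RNU5A-1 they were 71 to 72 against 51 to 78.5 nt, and on RNU5B-1 71 to 72 against 63.5 to 73.5 nt. Of all genes 61.2% were called, 10443 of 10696 of them lower, and the median of all genes was -1.55. Scaled to the library's total covered length, 1158 genes were higher and 3269 lower, with a median of -0.42, and on peak height 1644 were higher and 1152 lower. The exact permutation test called RNU6ATAC, which was 0.12 higher (adjusted p 0.026), along with 10316 of all genes, 75 of them higher. The members' own median was -0.03. A gene this short keeps most of its covered length while 1 peak is listed, so this median and that of all genes are not like for like.

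By peak height in RPM, both U4 genes were higher without crosslinking in all 4 proteins, with no overlap between groups, against 3.81% of genes. RNU4-2 went from 37.6 ± 1.72 to 121 ± 13.1 in hnRNPA1, from 22.5 ± 3.40 to 43.7 ± 12.0 in hnRNP C, from 30.4 ± 11.2 to 280 ± 38.9 in hnRNPI and from 604 ± 32.4 to 900 ± 26.6 in RBFOX2 (SD, n = 2 each). The ratios were 3.22, 1.94, 9.21 and 1.49. In reads, the RNU4-2 peak rose in hnRNPA1 (445 and 449 to 738 and 748) and in hnRNPI (375 and 199 to 635 and 816). It held 210 and 188 reads with crosslinking and 186 and 196 without it in hnRNP C. In RBFOX2 it fell from 5722 and 5641 to 1546 and 1845. The summed listed reads of these RBFOX2 libraries fell from 9131893 and 9713147 to 1682924 and 2094259. The U5 genes did not follow U4. Both were lower in RPM without crosslinking in hnRNPA1, hnRNP C and RBFOX2, and higher in hnRNPI. In reads they were lower in hnRNPI too. RNU5A-1 held 69 and 87 reads there without crosslinking, against 230 and 131 with it. RNU5B-1 held 112 and 115 against 231 and 173. The summed listed reads of these hnRNPI libraries were 2067209 and 3235496 without crosslinking, against 9788478 and 8868111 with it.

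RNU5A-1 stood at 0.405 of its crosslinked value in hnRNPA1, 0.251 in hnRNP C and 0.333 in RBFOX2, and RNU5B-1 at 0.535, 0.242 and 0.417. In hnRNPI the ratios were 1.57 for RNU5A-1 and 2.08 for RNU5B-1. The minor spliceosome genes also differed by protein: in hnRNPI RNU4ATAC was at 11.0 times and RNU6ATAC at 12.8 times the crosslinked value, and in RBFOX2 at 0.530 and 0.730 times.

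Counted by protein, 4 members were higher without crosslinking in hnRNPA1 (both U4 genes, RNU4ATAC and RNU6ATAC), where 55.1% of genes were higher, and 2 were lower (the U5 genes), where 13.2% were. In hnRNP C 3 were higher (both U4 genes and RNU6ATAC, against 29.7% of genes) and the 2 U5 genes lower (14.6%). All 6 were higher in hnRNPI, against 19.6%. In RBFOX2 the 2 U4 genes were higher, against 30.8%, and the 4 others lower, against 21.4%. Tested by peak height in limma over the 4 proteins, RNU4-1 (1.38, adjusted p 0.0165), RNU4-2 (1.59, adjusted p 0.00138) and RNU6ATAC (1.61, adjusted p 1.13e-05) were higher, as were 9.41% of genes. RNU5A-1 (-0.999, adjusted p 0.32) and RNU5B-1 (-0.76, adjusted p 0.244) did not pass. RNU5B-1 passed as lower when the small hnRNP C library was left out of the fit (-0.76, adjusted p 0.000358), although that library is in neither group compared here and enters only through the shared estimate of spread.

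The place of the peaks along the RNA was also given in the lists. Positions here count from the outermost 5′ nucleotide covered in any library. In RBFOX2 the RNU4-2 peaks reached from position 1 to 66 with and without PAGE in the crosslinked 50k libraries, with the inner interval of the highest peak, a stretch of at most 4 nt that the caller marked, at 33.5 without PAGE and at 36.5 and 37.5 with it. In hnRNP C the inner interval lay further 3′, at 45.5 to 47.5 in its crosslinked 50k groups at low RNase. This order did not hold in all groups. In the RBFOX2_10k and RBFOX2_1k libraries the interval lay at 42.5 to 47.5, within the range of hnRNP C, and in 1 of the noUV_hnRNPc libraries it lay at 33.5.

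In hnRNPA1 the covered stretch of the U4 genes was shorter without crosslinking. All 4 libraries without crosslinking ended at position 53 on RNU4-2, while those with crosslinking at low RNase, RecJ groups included, ended at 62 to 66. On RNU4-1 the ends were at 52 to 54 without crosslinking and at 60 to 66 with it. RNU6ATAC differed at its other end: coverage began at position 1 or 2 in the 4 hnRNPA1 libraries without crosslinking and at 4 to 24 with it at low RNase. Libraries of the other proteins without crosslinking ended at 66 to 70 on RNU4-2. This was seen while going through the values and was not tested.

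**Figure D4:**
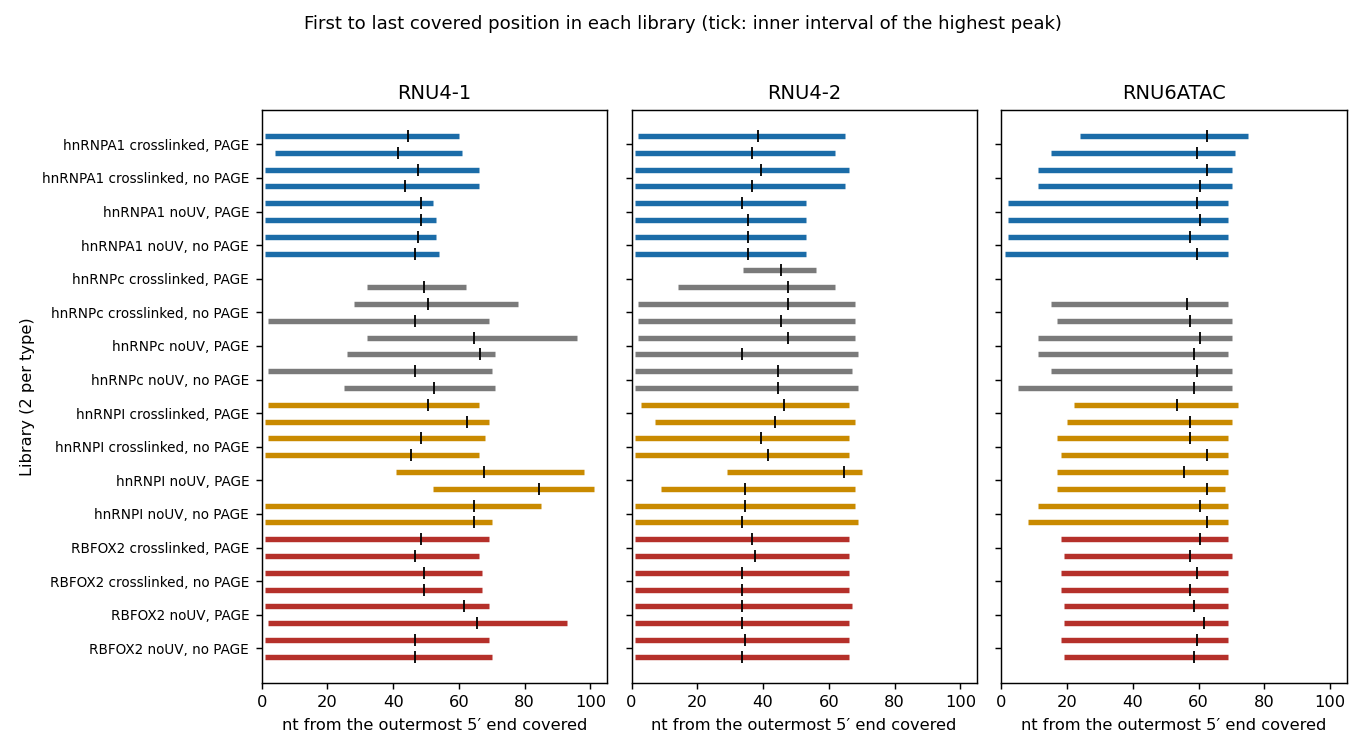
First to last covered position of RNU4-1, RNU4-2 and RNU6ATAC in each of the 32 libraries, in nt from the outermost 5′ end covered in any library, coloured by protein; the tick is the inner interval of the highest peak. The 4 hnRNPA1 libraries without crosslinking end at position 53 on RNU4-2, against 62 to 66 in the crosslinked hnRNPA1 libraries.

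RNU4-1 had peaks in its 3′ part in a few groups. In the hnRNP C libraries with medium RNase they lay at positions 65 to 102, and in the hnRNPI libraries without crosslinking, with PAGE, at 41 to 101. The inner interval of RNU6ATAC lay between 52.5 and 66.5 in the 52 libraries that listed it. That of RNU4ATAC ran from 3.5 to 81.5 in 43 libraries, and in the hnRNPc_1k library that listed it, only 8 nt were covered.

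The U4 genes are near-identical copies of each other, as are the U5 genes, and how reads matching more than 1 copy were placed is not given in the sources used here, so the split between copies is uncertain. As reads of the highest peak per covered nt, RNU4-2 was above RNU4-1 in 55 of the 58 libraries that listed both, with a median ratio of 1.81 and a range from 0.725 to 3.56. RNU5B-1 was above RNU5A-1 in 41 of 50 libraries, with a median ratio of 1.23. Any statement on a single copy carries this limit.

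The remaining groups have values but no test. RecJ digestion left the RBFOX2 peaks near their level: RNU4-2 held 524 and 610 RPM with RecJ, and RNU5B-1 343 and 376. The 2 groups overlapped. At medium RNase the hnRNPA1 libraries had lower peaks on the 2 members that all 4 libraries listed, with RNU4-2 at 9.78 and 12.4 RPM against 17.9 and 18.5 at low RNase, and RNU6ATAC at 2.89 and 2.90 against 11.9 and 9.41.

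With fewer cells RBFOX2 still gave RNU4 peaks. From 10000 cells RNU4-2 stood at 216 and 149 RPM and from 1000 cells at 249 and 200, against 388 and 355 from 50000 cells with PAGE. RNU5B-1 was not listed in either library of 1000 cells, and RNU5A-1, RNU4ATAC and RNU6ATAC were each listed in 1 of them. These groups also had less RNase (0.001 and 0.0001 U), so that cell number and RNase cannot be told apart. In the hnRNP C libraries whose titles name smaller cell numbers (hnRNPc_5k and hnRNPc_500) while the labels give 50000 cells, RNU4-2 and both U5 genes were listed in all 8.

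In the other gel regions RNU4-2 was listed in 5 of 8 libraries, with 8 to 24 reads, and RNU5B-1 in 2 of 8, with 19 and 12 reads. RNU4-1, RNU5A-1, RNU4ATAC and RNU6ATAC were in none of them. In 6 of these 8 libraries the list held at most 1802 peaks, and the 24 reads of RNU4-2 in replicate 1 of the 150 to 250 kDa region came to 1656 RPM.

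Genes whose share of listed reads followed RNU4-2 most closely over the 68 libraries were ranked by Spearman's rho among 12276 genes listed in at least 34 libraries. Its copy RNU4-1 came first, at 0.71. ENSG00000207424, at 0.70 and listed in 38 libraries, and ENSG00000180901, at 0.69 and listed in 62, came next, and no table at hand pairs these identifiers with names. Of the other members RNU6ATAC was at 0.64, RNU5B-1 at 0.48, RNU4ATAC at 0.47 and RNU5A-1 at 0.40. The libraries share cells, protocol steps and list sizes, so these values describe the set and are given with no p.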

How the data were processed

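Peak lists of 68 libraries were used as deposited, 1 list per library, on hg19. Reads were handled with bcl2fastq, UMI-tools 1.0.1 and STAR 2.7.3a, per the submitters' processing notes; the file names give CLIPper as peak caller. The deposited p-value of each peak is the authors' own, and no adjustment is stated. The last number of the peak name, at least 4 everywhere, was taken as the read number of that peak, which no source states. Depth is unknown, so no counting interval was computed. Samples were grouped by title. Covered nt per gene, reads of the highest peak and their number per 1000000 listed reads were computed with Python 3.11.15 and pandas 2.3.3. One limma 3.58.1 model (R 4.3.3, lmFit, eBayes with trend, two-sided) with 16 group means was fitted to log2(nt + 10) of 17478 genes in 32 libraries, adjusted by Benjamini-Hochberg at 0.05, and tested on simulated data. The exact permutation test had 1296 relabellings and a smallest possible p of 0.00154. The 6 members and the lists of named genes were chosen with earlier results of these data known. Named are the 6 members and the genes most like RNU4-2; further spliceosomal snRNA genes were not analysed here, since 0 identifiers could be matched to the gene table at hand. Alternatives were another pseudocount, filter, peak threshold, measure, scaling, a replicate block and leaving out each library.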

Additional observations from a re-analysis of the deposited data

Results flagged for a closer look

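Each result here is a pair of proteins whose libraries differed in opposite directions under the same protocol change, with no overlap between the groups on either side, in log2(RPM + 1) of the highest peak. None of these differences between proteins was tested.

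When PAGE was omitted, RNU4-2 was 1.01 higher in hnRNPA1 and differed by -1.60 in hnRNP C, a gap of 2.61. With no overlap between groups, 12.9% of genes were higher in hnRNPA1 and 6.83% were lower in hnRNP C. The hnRNP C side rests on the small library: without it the comparison is 26.6 RPM with PAGE against 24.9 and 20.1 without. RNU4ATAC was 0.32 higher in RBFOX2 and differed by -0.96 in hnRNPI, a gap of 1.28. By the same rule 4.23% of genes were higher in RBFOX2 and 31.6% were lower in hnRNPI.

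When crosslinking was omitted without PAGE, the U5 genes were higher in hnRNPI and lower in the other 3 proteins, while RNU4ATAC and RNU6ATAC were lower in RBFOX2 and higher in hnRNPI and hnRNPA1. RNU5A-1 was 0.66 higher in hnRNPI and differed by -1.86 in hnRNP C, a gap of 2.51, and RNU5B-1 was 1.00 higher against -1.94, a gap of 2.94. RNU4ATAC was 3.06 higher in hnRNPI and differed by -0.90 in RBFOX2, a gap of 3.96. For RNU6ATAC the values were 3.59 and -0.46, a gap of 4.04. The hnRNPI lists without crosslinking or PAGE held 44086 and 78945 peaks, against 353415 and 341973 with crosslinking. In reads the U5 peaks were lower in hnRNPI as well, at 69 and 87 against 230 and 131 on RNU5A-1. On RNU5B-1 they held 112 and 115 reads against 231 and 173. The part of list size in these gaps was not tested.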

How the results depend on the processing

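Values are members called, of 6. For hnRNPA1, 1 became 0 with a pseudocount of 1 nt, the filter at 16 libraries, peaks with p below 1e-05, number of peaks and covered nt scaled to the library; leaving out 1 library gave 0 to 1. On highest-peak reads it was also 1, but RNU6ATAC. For hnRNP C, 0 became 3 lower on summed reads and 2 lower on highest-peak reads; for hnRNPI, 1 lower on number of peaks and on both read measures. For RBFOX2, 0 became 1 higher with peaks below 1e-05, number of peaks and covered nt scaled to the library, and 6 higher on both read measures. With PAGE omitted, 2 became 0 on covered nt scaled to the library and in the exact permutation test. Leaving out 1 library gave log2 differences from 1.57 to 2.27 on RNU5A-1 and from 1.56 to 2.27 on RNU5B-1. With crosslinking omitted and PAGE kept, 3 became 5 on number of peaks, covered nt scaled to the library and both read measures, and 0 in the exact permutation test; genes called higher went from 345 to 466, 1140, 1284 (summed reads) and 2133 (highest peak), and 0. Without PAGE, 0 became 1 lower with peaks below 1e-05, 2 higher on number of peaks, 4 higher on covered nt scaled to the library, 3 higher on both read measures and 1 higher in the exact permutation test; genes called higher went from 253 to 316, 1158, 1213, 1644 and 75, and genes called lower were 9689 with peaks below 1e-05. With PAGE omitted, genes called higher went from 875 to 201 on scaled nt and 0 by permutation. For RBFOX2, 1429 became 1898, 2166, 2226, 2604 and 1931 in the order above; genes called lower went from 1240 to 1263 and 686 for hnRNP C, and from 2051 to 3044, 2540 and 1243 for hnRNPI. The causes were not tested. Signs were compared across settings for RNU4ATAC in hnRNPA1, and for both U5 genes and RNU6ATAC with PAGE omitted and with crosslinking omitted and PAGE kept. None of these changed sign. Signs of the other members' calls, and of any call with crosslinking omitted without PAGE, were not compared across settings. Replicate numbers showed little sign of pairing samples (correlation of deviations from -0.079 to 0.22 over 120 pairs of groups, 3 of them over 0.1). This cannot show that no pairing existed. With the replicate block the counts were 1, 0, 0 and 0 for the proteins, 2 with PAGE omitted, and 3 and 0 with crosslinking omitted. Fits on highest-peak reads with either crosslinked hnRNP C library with PAGE left out hold 1 library in that group. With PAGE omitted, the median over all genes was -0.29 without replicate 1 and 0.07 without replicate 2. With crosslinking omitted and PAGE kept, it was -0.16 and 0.10. Counts of members called in these fits are not read as results. The highest-peak measure and these fits were added after seeing the data. Depth limits what an unlisted gene shows.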
